A study of Mus musculus with 12 samples.

Results

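Claudins and the proteins that work with them at tight junctions were followed at the RNA level in proximal colon tissue of 12 mice. The genes were taken by name: 29 were listed (22 claudins, 4 other membrane proteins and 3 plaque proteins), and all 29 were found among the 38924 genes counted in every mouse. No measured value entered the rule. RNA-Seq libraries were made from total RNA, 1 library a mouse, of 6 animals with the APC Min/+ genotype and 6 wild-type (WT) controls, all female C57BL/6 aged 6 weeks. The Min allele is a germline truncation of Apc, carried in the heterozygous state by every cell of the animal. Microscopy by the study showed neither adenomas nor aberrant crypt foci at this age. The genotypes were kept in separate cages, so cage and genotype cannot be told apart, and the labels do not say which shipment a mouse came in. The comparison asks whether expression of tight junction genes already differs by genotype before neoplasia.

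Claudins are small proteins with 4 membrane spans whose extracellular loops meet between neighbouring epithelial cells and set what passes between them. Barrier claudins such as Cldn3, Cldn4 and Cldn8 tighten the paracellular route, while pore claudins such as Cldn2 and Cldn15 open it to small cations and water. Occludin, tricellulin (Marveld2), Marveld3 and the junctional adhesion molecule F11r share the membrane with them, and the ZO proteins Tjp1 and Tjp3 and cingulin (Cgn) tie the strand to actin from the cytoplasmic side. The division into barrier and pore claudins used below was taken from this general knowledge. Cldn7, Cldn12, Cldn23 and several rarer claudins were kept apart because their role is less settled or varies with the tissue.

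The start-site sequences shown here belong to the 2 pore claudins with the most RNA per length (Cldn2 and Cldn15) and to Cldn14, a barrier claudin on which the genotype comparison partly turns. They are RefSeq windows on GRCm38.p6, from 250 bases before to 50 bases after an annotated start, written in the direction of transcription. RefSeq entries matched 24 of the 29 genes with 35 windows. Cldn8 was not among them. Capitals mark matches to the searched motifs.
Cldn2, chrX:139800558-139800857, plus strand: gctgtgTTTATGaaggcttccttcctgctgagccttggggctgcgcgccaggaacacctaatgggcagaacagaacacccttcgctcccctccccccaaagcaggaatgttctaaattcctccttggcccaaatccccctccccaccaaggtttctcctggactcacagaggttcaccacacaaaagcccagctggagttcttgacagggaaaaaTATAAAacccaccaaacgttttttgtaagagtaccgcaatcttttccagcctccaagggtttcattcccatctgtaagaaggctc
Cldn15, chr5:136967619-136967918, plus strand: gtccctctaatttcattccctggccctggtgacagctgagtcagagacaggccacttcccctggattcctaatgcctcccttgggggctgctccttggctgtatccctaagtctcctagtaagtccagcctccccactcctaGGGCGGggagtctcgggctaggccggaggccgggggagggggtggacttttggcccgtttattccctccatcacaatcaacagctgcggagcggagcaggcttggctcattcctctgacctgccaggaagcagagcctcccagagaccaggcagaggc
Cldn14, chr16:94008788-94009087, minus strand, the start farthest upstream of those listed: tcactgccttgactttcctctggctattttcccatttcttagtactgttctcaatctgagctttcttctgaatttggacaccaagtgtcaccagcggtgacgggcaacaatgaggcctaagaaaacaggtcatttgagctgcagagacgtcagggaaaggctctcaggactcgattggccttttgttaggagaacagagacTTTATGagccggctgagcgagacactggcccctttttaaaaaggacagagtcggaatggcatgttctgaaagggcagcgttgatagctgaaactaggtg
In the Cldn2 window, TATAAA begins 35 bases before the start, and the caudal-type homeobox core CATAAA lies on the opposite strand, 244 bases before it. The Cldn15 window holds the GC box GGGCGG 108 bases before the start. The Cldn14 window holds CATAAA on the opposite strand, 49 bases before the start. Of 32851 promoter windows of this length, 13.6% hold TATAAA, 35.7% GGGCGG and 11.9% CATAAA on either strand. Among the 35 windows of the 24 matched genes, 3 held TATAAA (of Cldn2 and Marveld2), 20 held GGGCGG (of 16 genes) and 2 held CATAAA (of Cldn2 and Cldn14). The TCF/LEF letters CTTTGNT were in 4 of the 35 windows (of Cldn4, Cldn12, Cldn18 and Tjp3), against 18.6% of all windows. The GATA letters AGATAA were in 3 of the 35 (of Cldn10, Cldn18 and Tjp3), against 11.2%, and TCGTAAA (posterior Hox core) was in none, against 0.597%. The caudal-type and posterior Hox letters overlap at their end. A match of letters is a description of the window only.

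Summed counts ran from 81730206 to 197914821 in the APC Min/+ libraries and from 50313805 to 117477400 in the WT libraries. Markers of the labelled tissue were present in all 12 (8 epithelial genes summed to between 10739 and 17325 CPM, which is counts scaled to library size). The study took sections of the colon, and 6 smooth muscle genes summed to between 4391 and 6960 CPM, so the RNA was not from epithelium alone. The total for Apc itself was 164 to 216 CPM in APC Min/+ and 154 to 239 CPM in WT mice, and a count over the whole gene holds the reads of both alleles together. Libraries M10_2 and M13_1, both APC Min/+, stood apart. The 6 distal colon markers (Hoxa13, Hoxb13, Hoxd13, Tgm3, Fxyd4 and Insl5) summed to 2944 and 2784 CPM in them, against 2.90 to 8.84 CPM in the other 10, and each of the 6 was highest in these 2 mice. All of these distal markers are also among the genes that the study lists as higher in APC Min/+, from the same mice. Their shared peak is therefore not independent of that list. Of the 2 proximal markers, Cyp2c55 was lower in M10_2 and M13_1 (323 and 715 CPM against 4756 to 9549) and Aqp4 was higher (480 and 126 CPM against 30.7 to 66.2). The WT library M17_1 was the lowest of the 12 for 21.7% of tested genes and the highest for 20.9%. Values are therefore given with and without M10_2 and M13_1 where they bear on a gene, and for some genes without M17_1. In such tissue RNA, fewer cells of a type and less RNA per cell cannot be told apart.

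RPKM, in which CPM is also divided by exon length, allows genes to be compared with each other. On that scale 15 of the 29 genes averaged 10 or more over the 12 mice. The most abundant was Cldn7 at 221 RPKM, followed by Cldn3 at 154, F11r at 89.5, Cldn15 at 70.0, Cldn2 at 65.6, Cldn4 at 61.5, Tjp3 at 50.2 and Cgn at 34.1. The neighbours Cldn15, Cldn2 and Cldn4 did not separate, since their standard deviations within a genotype reached 30.7, 12.3 and 42.9 RPKM. Ocln (31.8 RPKM), Tjp1 (26.7), Cldn23 (24.9), Cldn12 (18.3), Marveld3 (17.7), Marveld2 (12.1) and Cldn8 (11.2) made up the rest of the 15. Cldn5, the claudin of blood vessel walls, averaged 3.23 RPKM, while the remaining claudins averaged under 1 RPKM. The 6 claudins Cldn6, Cldn13, Cldn16, Cldn17, Cldn18 and Cldn19 were too low to test. None had more than 11 counts in a mouse, and Cldn16, a cation channel of the kidney, had 0 in all 12, where 3 counts would have been 0.0151 to 0.056 CPM.

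**Figure D1:**
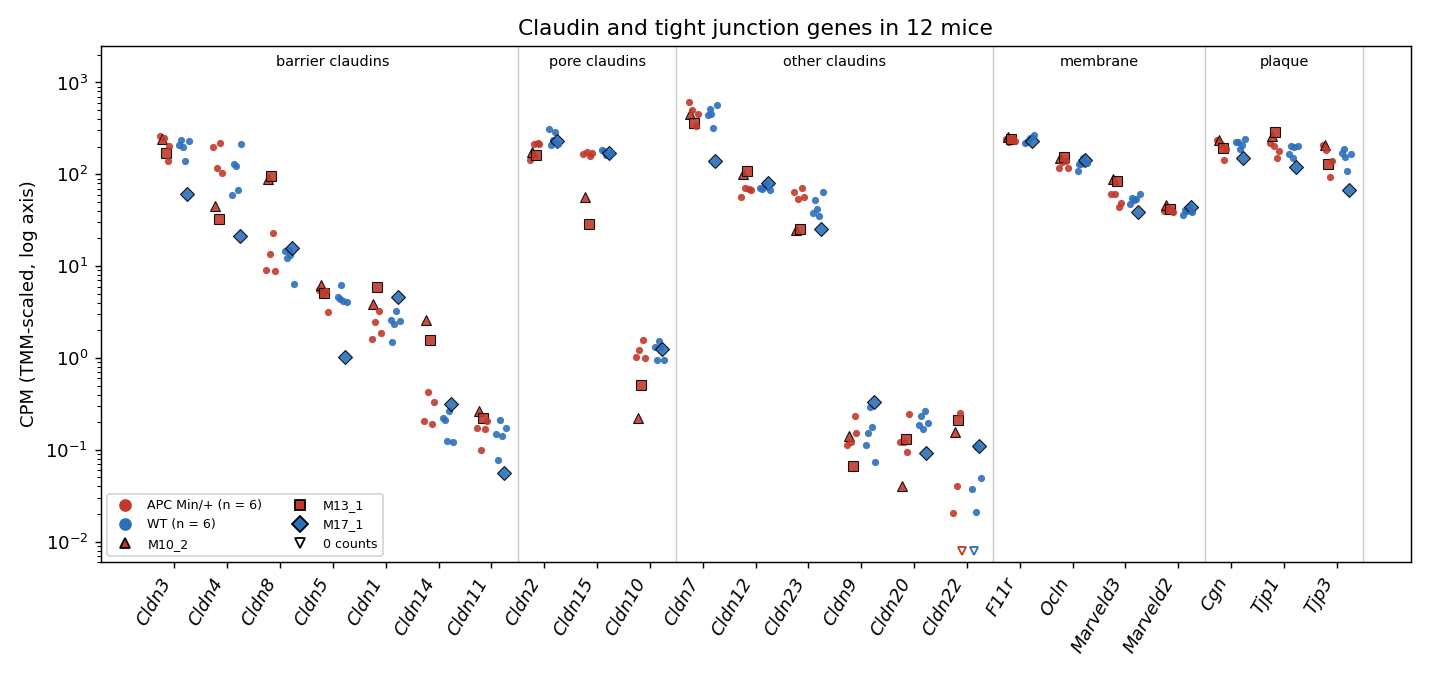
CPM of the 23 tested genes (TMM-scaled, log axis) in each of 6 APC Min/+ mice (red) and 6 WT mice (blue), grouped by role, with M10_2 (triangle), M13_1 (square) and M17_1 (diamond) marked and 0 counts drawn as open triangles at the foot. Cldn8 in M10_2 and M13_1 sits at 89.4 and 95.9 CPM, above the 6.44 to 23.0 CPM of the other 10 mice, and Cldn15 in the same 2 mice sits at 56.6 and 28.5 CPM, below the other 10.

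None of the 23 tested genes was called different between genotypes after adjustment. By the quasi-likelihood test of edgeR, adjusted over 20311 genes after Benjamini and Hochberg, 0 of 23 had an adjusted p under 0.05 (0.0% of all tested genes did), and their adjusted p ran from 0.908 to 0.985. DESeq2 also called 0 of the 23, while calling 29 of all genes. At an unadjusted p under 0.05 the edgeR test had 3 of 23 (Cldn8, Cldn14 and Cldn2), where 5.27% of all tested genes passed. Of these, 2 were higher in APC Min/+, against a background of 3.46% in that direction, and 1 was lower, against 1.81%. No gene of the 23 had all 6 APC Min/+ mice above all 6 WT mice (0.0443% of all genes did) or all below (0.0739%). The median log2 fold change, APC Min/+ over WT, was 0.18 for the 23 genes and -0.0077 for all tested genes. By sign alone 17 were higher and 6 lower, and signs were not counted over all tested genes. Without M10_2 and M13_1 the median of the 23 was 0.063.

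Barrier claudins. All 7 tested had a log2 fold change above 0, from 0.19 to 2.06 with a median of 0.29, and 2 of the 7 (Cldn8 and Cldn14) passed the unadjusted threshold. Their median was 0.26 without M10_2 and M13_1. Within it Cldn8 and Cldn14 came down to 0.07 and 0.42, Cldn4 went up to 0.65, and Cldn1 turned to -0.28. Without the WT library M17_1 alone, Cldn3 came down to 0.063 and Cldn4 to just below 0. With M10_2, M13_1 and M17_1 all left out, Cldn1 and Cldn5 were below 0. The median over all tested genes was -0.0077 with all mice, and the share of them above 0 was not counted.

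Cldn8 tightens the distal nephron and the distal colon against sodium. In APC Min/+ mice it read 8.76 CPM at the lowest, 18.24 at the median and 95.9 at the highest. In WT mice it read 6.44, 13.98 and 15.7 CPM. The high values were those of M10_2 (89.4 CPM) and M13_1 (95.9 CPM), and the other 4 APC Min/+ mice (8.76 to 23.0 CPM) overlapped the WT mice. The log2 fold change was 1.63 (SE 0.598, unadjusted p = 0.0172, adjusted p = 0.908, edgeR) with all mice, and 0.07 (SE 0.298, unadjusted p = 0.816) without those 2. Leaving out M10_2 alone gave 1.22 and leaving out M13_1 alone gave 1.16, neither with an unadjusted p under 0.05. Cldn8 is a gene of 1 exon on the minus strand (ENSMUSG00000050520.4, chr16:88560828-88563183).

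Cldn14, a barrier claudin of the inner ear and kidney, was scarce here. Its lowest, median and highest values were 0.189, 0.377 and 2.57 CPM in APC Min/+ mice and 0.123, 0.218 and 0.313 CPM in WT mice. M10_2 held 508 of the 896 counts summed over all mice and M13_1 stood at 1.57 CPM, while the other 4 APC Min/+ mice ended at 0.421 CPM and overlapped the WT mice. APC Min/+ over WT, the log2 fold change was 2.06 (SE 0.648, unadjusted p = 0.00709, adjusted p = 0.908, edgeR), and 0.42 (SE 0.347, unadjusted p = 0.246) without M10_2 and M13_1. Leaving out M10_2 alone gave 1.35 and brought the APC Min/+ mean from 0.880 to 0.543 CPM, and leaving out M13_1 alone gave 1.83. The gene (ENSMUSG00000047109.6) spans chr16:93919031-94008837 on the minus strand.

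Cldn3 and Cldn4 carried most of the barrier claudin RNA. Cldn3, a general sealing claudin of the gut, read 140, 224 and 260 CPM at the lowest, median and highest in APC Min/+ mice, and 61.1, 204 and 234 CPM in WT mice. The genotypes overlapped between 140 and 234 CPM, and the lowest value was that of M17_1. Its log2 fold change was 0.24 (SE 0.276, unadjusted p = 0.392, edgeR), and 0.063 without M17_1. Cldn3 has 1 exon (ENSMUSG00000070473.3, chr5:134986214-134987472, plus strand), 40 bp of which overlap Wbscr25 on the other strand. Whether counting used strand is not given in the sources used here.

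Cldn4, a sealing claudin of surface epithelium, ranged more widely than Cldn3. It ran from 32.5 CPM through a median of 111 to 220 CPM in APC Min/+ mice, and from 21.6 through 94.7 to 215 CPM in WT mice. The lowest 3 of the 12 were M17_1, M13_1 (32.5 CPM) and M10_2 (44.8 CPM), so each genotype held both high and low mice. The genotype difference on the log2 scale was 0.22 (SE 0.537, unadjusted p = 0.682, edgeR). It rose to 0.65 (SE 0.480, unadjusted p = 0.204) without M10_2 and M13_1, and dropped to -0.035 without M2_A and to -0.000084 without M17_1. Cldn4 (ENSMUSG00000047501.2, chr5:134945119-134946934, minus strand) lies near Cldn3 on the same chromosome.

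The other barrier claudins were low. Cldn5 averaged 5.02 ± 1.02 CPM in APC Min/+ and 4.10 ± 1.70 CPM in WT mice (SD, n = 6 each), Cldn1 averaged 3.18 ± 1.62 and 2.79 ± 1.03 CPM, and Cldn11 stayed under 0.27 CPM. Cldn5 was lowest in M17_1 (1.03 CPM, against at least 3.17 CPM elsewhere). Its log2 fold change of 0.29 ran from 0.087 to 0.46 with 1 mouse left out. Cldn1 had its highest value, 5.99 CPM, in M13_1, and its log2 fold change of 0.19 became -0.28 without M10_2 and M13_1. Cldn1, Cldn5, Cldn10, Cldn11, Cldn12, Cldn23, Ocln, Marveld2, Marveld3 and Tjp1 lie outside the rule for named genes and were described after their values were seen.

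**Figure D2:**
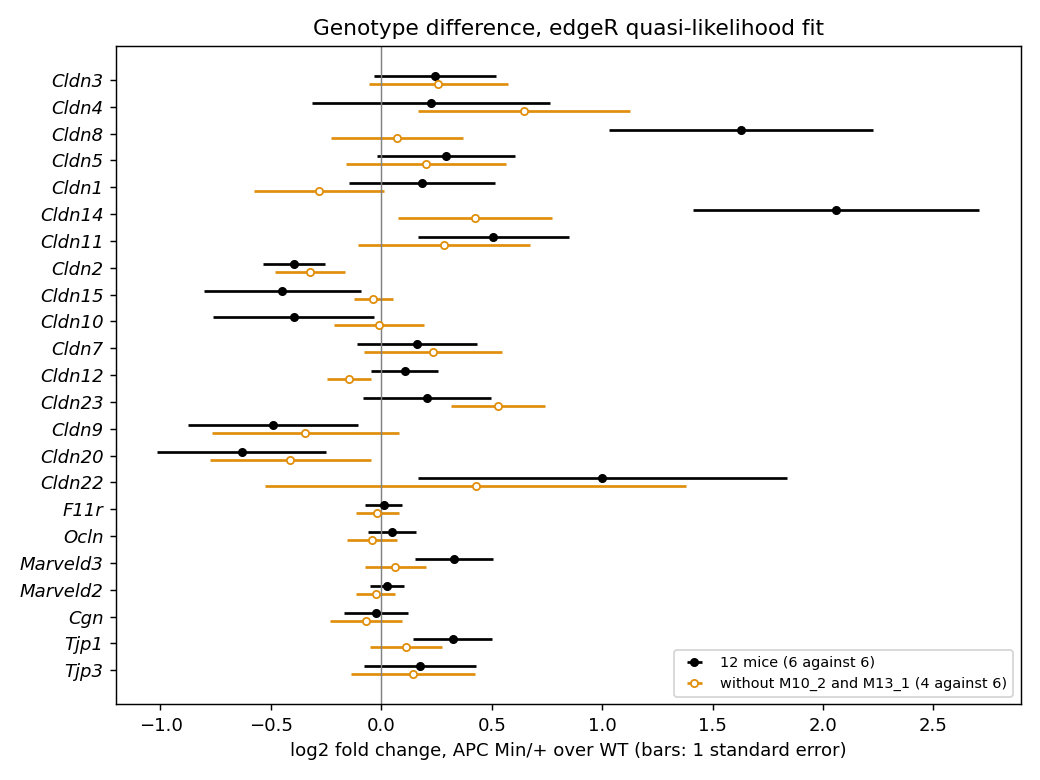
Log2 fold change of APC Min/+ over WT (x axis) with a bar of 1 standard error on each side for the 23 tested genes, with all 12 mice (black) and without M10_2 and M13_1 (orange, 4 against 6). Cldn8 moves from 1.63 to 0.07 and Cldn14 from 2.06 to 0.42 when those 2 mice are left out, while Cldn2 moves from -0.39 to -0.32.

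Pore claudins. All 3 tested had a log2 fold change below 0, close together between -0.45 and -0.39, and 1 of the 3 (Cldn2) passed the unadjusted threshold. Without M10_2 and M13_1 their median was -0.036, with Cldn2 at -0.32, Cldn15 at -0.036 and Cldn10 at -0.011.

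Cldn2 forms the cation and water channel of leaky epithelia and is known from crypt cells in the colon. In APC Min/+ mice it read 144 CPM at the lowest, 196 at the median and 217 at the highest. In WT mice it read 210, 233 and 309 CPM. The 3 lowest of the 12 were APC Min/+ mice (M8_2 at 144, M13_1 at 163 and M10_2 at 176 CPM), and the 4 highest were WT mice. The remaining 3 APC Min/+ and 2 WT mice lay together between 210 and 217 CPM, so the genotypes overlapped there. The fitted log2 fold change was -0.39 (SE 0.141, unadjusted p = 0.0149, adjusted p = 0.908, edgeR). An exact permutation test over the mice, two-sided, gave an unadjusted p of 0.0216. With any 1 mouse left out the log2 fold change stayed between -0.44 and -0.32 and the unadjusted p between 0.0116 and 0.0397 (edgeR). Without both M10_2 and M13_1 it was -0.32 (SE 0.157, unadjusted p = 0.0629). Cldn2 (ENSMUSG00000047230.6, chrX:139800828-139811386, plus strand) was the only gene of the 23 under 0.05 in the exact permutation test, where 805 of all 20311 genes were.

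Cldn15 makes the sodium-permeable pores of the intestine. Its lowest, median and highest values were 28.5, 162 and 175 CPM in APC Min/+ mice and 162, 170 and 184 CPM in WT mice. M13_1 (28.5 CPM) and M10_2 (56.6 CPM) were far below the rest, and the other 10 mice all lay between 159 and 184 CPM. Outside those 2 mice the spread was small beside the mean: the WT mice averaged 172 ± 9.20 CPM and the other 4 APC Min/+ mice 167 ± 6.71 CPM (SD). The log2 fold change was -0.45 (SE 0.355, unadjusted p = 0.228, edgeR), and -0.036 (SE 0.0875, unadjusted p = 0.685) without the 2. The gene (ENSMUSG00000001739.8) lies at chr5:136966616-136975858, plus strand. Cldn10, which forms ion channels in kidney and glands, averaged 0.928 ± 0.490 CPM in APC Min/+ and 1.22 ± 0.231 CPM in WT mice, with M10_2 (0.222 CPM) and M13_1 (0.508 CPM) again lowest.

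M10_2 and M13_1 thus paired high Cldn8 with low Cldn15. Among the 23 tested genes they were the 2 highest of 12 mice for 6 (Cldn8, Cldn11, Cldn12, Cldn14, Marveld3 and Tjp1), where 11.8% of all tested genes had that order. They were the 2 lowest for 2 (Cldn10 and Cldn15), against 12.2%. The distal marker sums given above moved with these genes, but those markers are genes that the study already lists as higher in APC Min/+. Markers of other cell types moved as well: all 3 adipocyte markers were lowest in these 2 mice (summing to 18.3 and 31.9 CPM, against 37.6 to 409 CPM), and of 6 smooth muscle markers Des (709 and 674 CPM against at most 586) and Cnn1 (612 and 587 CPM against at most 537) were highest, while the smooth muscle sum lay within the range of the other 10. Of 8 epithelial markers, Krt20 was lowest in them (589 and 534 CPM against at least 985) and Cdh1 highest (1491 and 1199 CPM against at most 871). The epithelial sum lay within the range of the other 10. Of 7 stratified squamous markers, 2 scarce ones (Krt10 and Lor) were highest. The squamous sum was above the other 10 (5.64 and 6.53 CPM against at most 5.16). Of 5 endothelial markers, 0 were highest and 0 lowest, but the M10_2 sum (137 CPM) was above the other 10 (at most 131). The glial, leukocyte and skeletal muscle lists, 4 markers each, had 1 lowest in these mice (S100b, Cd3e and Ckm). The skeletal muscle sum was below the other 10 (19.4 and 14.6 CPM against at least 25.6). In M13_1 the leukocyte sum was above them (48.9 CPM against at most 43.6). The part of these marker shifts in the result was not tested.

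**Figure D3:**
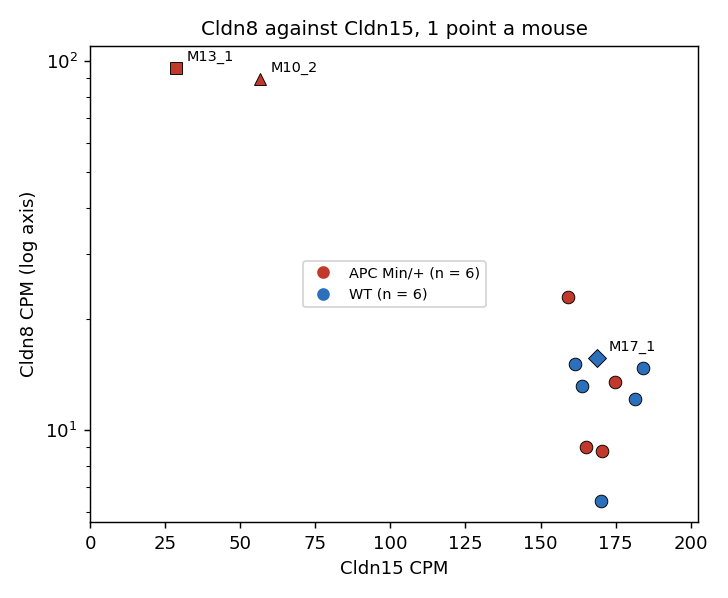
Cldn8 CPM (log axis) against Cldn15 CPM (linear axis), 1 point a mouse, for 6 APC Min/+ mice (red) and 6 WT mice (blue). M13_1 and M10_2 are alone at upper left, and the other 10 mice lie together at 159 to 184 CPM of Cldn15 and 6.44 to 23.0 CPM of Cldn8.

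Summed over the 9 listed barrier claudins, RPKM was 255 ± 42.9 in APC Min/+ and 207 ± 84.3 in WT mice (SD, n = 6 each). Summed over the 5 pore claudins it was 116 ± 36.7 and 156 ± 13.7. The log2 ratio of barrier to pore ran from 0.63 to 1.72 in APC Min/+ mice, with a mean of 1.19 ± 0.48, and from -1.10 to 1.08 in WT mice, with a mean of 0.27 ± 0.79. The genotypes overlapped. The 2 highest ratios were those of M10_2 (1.72) and M13_1 (1.67), which had the 2 lowest pore sums of all (79.7 and 62.6 RPKM), and the lowest ratio was that of M17_1, which had the lowest barrier sum (69.3 RPKM). The next lowest ratio, -0.071, was that of M18_2a, also WT, with the next lowest barrier sum (156 RPKM). M17_1 and M18_2a had the lowest of the GC correlations described below (-0.32 and -0.38). M17_2, at 0.29, had the ratio next above theirs (0.23). The part of GC content in the ratio was not tested. Without M10_2 and M13_1 the APC Min/+ mean was 0.93 ± 0.34 (n = 4), and without M17_1 the WT mean was 0.55. The ratio sums chosen genes and was not tested. Cldn8 made up 14.4% of the barrier sum in M10_2 and 20.4% in M13_1, against 0.894% to 9.59% in the other 10 mice.

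**Figure D4:**
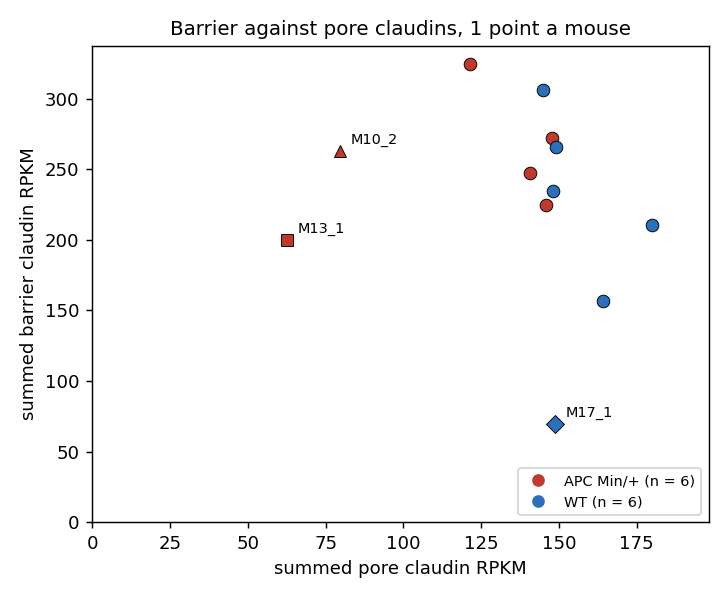
Summed RPKM of 9 barrier claudins (y axis) against summed RPKM of 5 pore claudins (x axis), 1 point a mouse, both axes linear from 0, for 6 APC Min/+ mice (red) and 6 WT mice (blue). M10_2 and M13_1 have the lowest pore sums, 79.7 and 62.6 RPKM, and M17_1 has the lowest barrier sum, 69.3 RPKM.

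Claudins with no fixed role. Of the 6 tested, 4 had a log2 fold change above 0 and none passed the unadjusted threshold. Cldn7, which lies along the lateral membrane as well as at the junction, was the most abundant of all the genes. It read 332, 456 and 615 CPM at the lowest, median and highest in APC Min/+ mice and 140, 449 and 567 CPM in WT mice. The medians nearly coincided and the low value of 140 CPM was M17_1. APC Min/+ over WT, the log2 fold change was 0.16 (SE 0.273, unadjusted p = 0.564, edgeR), and -0.019 without M17_1. Cldn7 (ENSMUSG00000018569.6) lies at chr11:69964779-69967885, plus strand.

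Cldn12 was 99.6 and 109 CPM in M10_2 and M13_1 and 57.2 to 81.1 CPM in the other 10 mice. Its log2 fold change of 0.11 (SE 0.149) became -0.15 (SE 0.101, unadjusted p = 0.173, edgeR) without them. Cldn23, a claudin of differentiated surface cells, went the other way. It read 24.6 and 25.3 CPM in M10_2 and M13_1, 53.9 to 71.4 CPM in the remaining 4 of that genotype and 25.1 to 63.5 CPM in WT mice. The low mice of both genotypes overlapped. Without M10_2 and M13_1, Cldn23 was the 1 gene of the 23 with an unadjusted p under 0.05 in edgeR, where 1.59% of all genes passed. Its log2 fold change was then 0.53 (SE 0.212, unadjusted p = 0.0289, adjusted p = 0.9999, edgeR). With all mice it was 0.21 (SE 0.289). Cldn9, Cldn20 and Cldn22 stayed at or under 0.332 CPM in every mouse, and the single exon of Cldn22 lies wholly within exons of Wwc2 on the other strand.

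**Figure D5:**
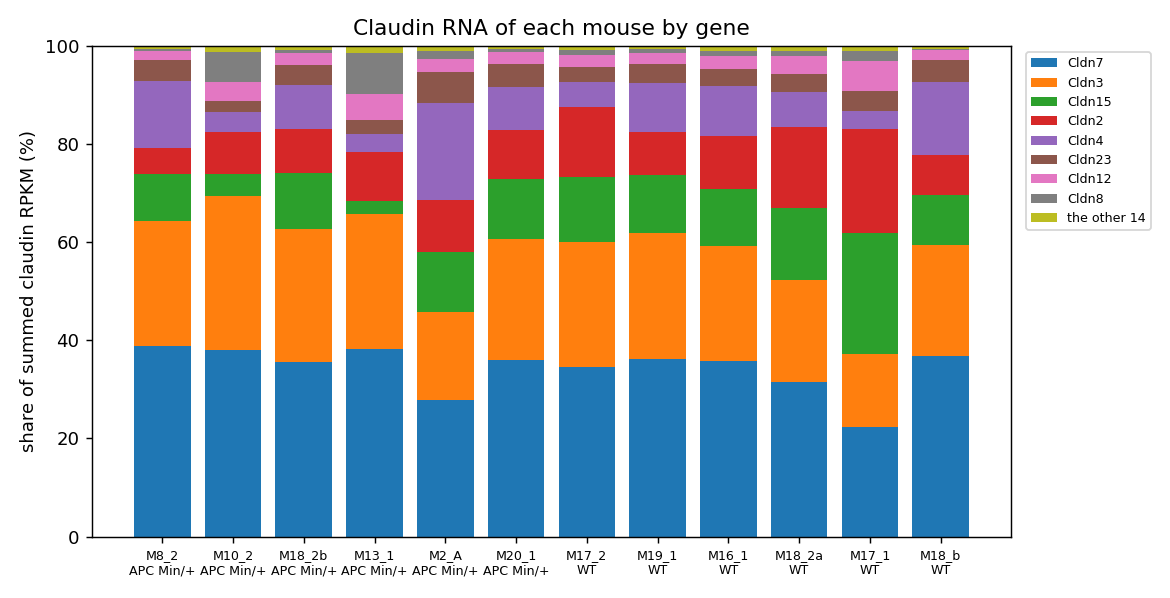
Share of each mouse's summed claudin RPKM (y axis, percent) by gene, 6 APC Min/+ mice then 6 WT mice, with the 8 largest claudins drawn apart and the other 14 pooled. Cldn7 takes the largest share in 11 mice, Cldn15 falls to 4.35% in M10_2 and 2.74% in M13_1, and in M17_1 Cldn15 (24.6%) is above Cldn7 (22.3%).

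As shares of the summed claudin RPKM, Cldn7 averaged 35.7% ± 4.12 in APC Min/+ and 32.8% ± 5.49 in WT mice, and Cldn3 ran from 18.1% to 31.5% and from 14.96% to 25.7%. Cldn2 averaged 8.92% ± 1.90 and 13.3% ± 5.04 and Cldn15 8.76% ± 4.18 and 14.3% ± 5.25 (SD, n = 6 each). The Cldn2 share ran from 5.33% to 10.6% in APC Min/+ mice and from 8.15% to 21.2% in WT mice, with overlap. The upper end was M17_1, in which Cldn3 and Cldn7 were low. Cldn8 held 6.18% and 8.32% in M10_2 and M13_1 and at most 2.05% in the other 10.

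Other membrane proteins. Of these 4 genes, none passed the unadjusted threshold. F11r, an adhesion molecule that recruits polarity proteins, read 224, 242 and 252 CPM at the lowest, median and highest in APC Min/+ mice and 220, 229 and 270 CPM in WT mice. The highest and the lowest of the 12 were both WT. The genotype difference on the log2 scale was 0.01 (SE 0.0855, unadjusted p = 0.908, edgeR). F11r (ENSMUSG00000038235.4) lies at chr1:171437535-171464603, plus strand. Marveld2, which seals the corners where 3 cells meet, averaged 41.4 ± 2.70 CPM in APC Min/+ and 40.6 ± 3.04 CPM in WT mice, and Ocln 136 ± 15.7 and 132 ± 14.8 CPM (SD, n = 6 each). Marveld3 was 88.8 and 84.3 CPM in M10_2 and M13_1 and 38.4 to 61.2 CPM elsewhere. Its log2 fold change was 0.33 (SE 0.175, unadjusted p = 0.0821, edgeR), and 0.063 (SE 0.139) without those 2.

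Plaque proteins. None of the 3 passed the unadjusted threshold. Tjp3 (ZO-3), an epithelial scaffold, read 94.4, 163 and 210 CPM at the lowest, median and highest in APC Min/+ mice and 68.2, 160 and 190 CPM in WT mice. The medians differed by less than the spread within either genotype, with M17_1 lowest. Without M17_1 the log2 fold change was 0.029. The fitted log2 fold change was 0.18 (SE 0.252, unadjusted p = 0.498, edgeR). Of its exons (ENSMUSG00000034917.7, chr10:81273207-81291581, minus strand), 40 bp overlap Apba3 on the other strand.

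Cgn, which links the junction to actomyosin, read 145, 204 and 239 CPM in APC Min/+ mice and 150, 217 and 241 CPM in WT mice in the same order. The ranges coincided almost entirely. The log2 fold change was -0.026 (SE 0.145, unadjusted p = 0.861, edgeR). Cgn (ENSMUSG00000068876.8) lies at chr3:94760069-94786492, minus strand. Tjp1 (ZO-1), the central scaffold of the junction, was 263 and 292 CPM in M10_2 and M13_1 and 121 to 218 CPM in the other 10. Its log2 fold change was 0.32 (SE 0.177, unadjusted p = 0.0911, edgeR), and 0.11 (SE 0.165) without those 2.

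M17_1 was the lowest of the 12 mice for 8 of the 23 genes, among them Cldn3, Cldn4, Cldn7, Tjp1 and Tjp3, and the highest for 1, against the shares of all genes given above. Its mean absolute log2 deviation from the mean of the 12 mice, 0.555 over 20311 genes, was the largest of the 12 (0.268 to 0.530 in the rest), and the deviation went with GC content (Spearman correlation across 20021 genes -0.32) and with length (-0.30 across the 20311). Over the 12 mice the GC value ran from -0.38 to 0.32. Its sum of epithelial markers, 10739 CPM, was the lowest. Genes are not independent replicates, and the part of these in the low values was not tested.

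A wider list of 32 junction and polarity genes, among them the Par, Crumbs and Magi scaffolds, the tricellular proteins Lsr, Ildr1 and Ildr2, and Cdh1, was read beside them. All 32 were tested, 0 had an adjusted p under 0.05 (edgeR and DESeq2), and 1 had an unadjusted p under 0.05 in the edgeR test, where 5.27% of all genes did. By sign 26 were higher and 6 lower in APC Min/+, with a median log2 fold change of 0.10 (0.077 without M10_2 and M13_1). The median over all tested genes was -0.0077 (-0.0064 without those 2 mice), and signs were not counted over all genes. The signs and median of this list were not taken without the WT library M17_1. M17_1 was the lowest mouse for 17 of the 32, where 21.7% of all tested genes had it lowest. The 1 gene under 0.05 was Lsr, the receptor that brings tricellulin to cell corners. It averaged 67.0 ± 36.1 CPM in APC Min/+ and 39.8 ± 13.9 CPM in WT mice (SD, n = 6 each). Its 2 highest mice were M10_2 (115 CPM) and M13_1 (109 CPM), and the other 4 APC Min/+ mice overlapped the WT mice. APC Min/+ over WT, the log2 fold change was 0.75 (SE 0.343, unadjusted p = 0.0464, adjusted p = 0.908, edgeR), and 0.16 (unadjusted p = 0.557) without M10_2 and M13_1. Those 2 mice were the highest for 5 of the 32 genes, against 11.8% of all genes, and the lowest for 0, against 12.2%.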

How the data were processed

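RNA from proximal colon tissue of 6 APC Min/+ and 6 WT mice was read from both ends of each fragment. Alignment to GRCm38 (STAR) and gene counting (featureCounts) were done by the authors, who deposited raw counts per gene with the exonic length of each gene. The submitters' processing notes name STAR 2.3.0 and GRCm38.p2. The annotation release and the strand setting are not given in the sources used here. Between 75.7% and 81.2% of the counts from 1 to 20 were even numbers, so a count may stand for 1 mate rather than 1 fragment, and precision by counting is then lower than the totals show. Ensembl identifiers were given symbols from GENCODE M21, which matched 37607 of 38924, and exon overlaps and GC content came from that annotation.

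A gene was tested if 3 mice or more had 10 counts or more (20311 genes), with the quasi-likelihood test of edgeR 4.0.16 (limma 3.58.1, R 4.3.3) after TMM scaling, with Benjamini-Hochberg adjustment over all of them, no covariates, and a threshold of 0.05 (also with a 2-fold change). The standard error is the size of the log2 fold change over the square root of F. CPM and RPKM are TMM-scaled. The pseudocount on the log2 scale for the exact permutation test was 0.5. Alternatives were DESeq2 1.42.0, edgeR's likelihood ratio test, an exact permutation test, limma-voom with sample weights, other scalings and filters, mice left out, and, chosen after seeing the data, a GC offset and the fit without M10_2, M13_1 and M17_1. Some of the fits were also run on simulated counts with known fold changes. Those had the same dispersion for all genes, no odd libraries and no GC shift, so they do not show how the fits behave on these data.

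The genes and lists were chosen with earlier results of these data known. Values in every group are given for genes with an unadjusted p under 0.05, the 8 with the highest RPKM, and those with a mean of at least 1 CPM whose highest mouse was at least 4 times the median (Cldn2, Cldn3, Cldn4, Cldn7, Cldn8, Cldn14, Cldn15, F11r, Tjp3 and Cgn), and, of the wider list, for those with an unadjusted p under 0.05. No 2 of the 66 pairs of libraries differed by as little as sampling noise (lowest chi-square per gene 15.9). Each library is 1 mouse, but cages are not labelled, so p-values measure the spread between these 12 mice only. Floors of 3 counts cover counting error only. Protein sequences were not used here.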

Additional observations from a re-analysis of the deposited data

How the results depend on the processing

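No gene of either list had an adjusted p under 0.05 in any of the fits that were run, including the 12 that left out 1 mouse each. In the main fit this was 0 of 23 and 0 of 32, and the number of listed genes tested changed with the filter. No paired analysis was possible because the replicate numbers follow the order of the samples and pair no mice.

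The 3 genes with an unadjusted p under 0.05 became 1 in the exact permutation test (805 of all 20311 genes passed) and 1 with limma-voom (645 of 20311). It was Cldn2 in both. There was 1 without M10_2 and M13_1 (317 of 19978) and 1 without M10_2, M13_1 and M17_1 (246 of 19795). There was also 1 with a GC offset and without M10_2 and M13_1 (375 of 19978). In each fit without both M10_2 and M13_1 it was Cldn23. With no filter on low counts there were 5 (1551 of 28449). That fit also took in listed genes too low to test in the main fit. With 1 mouse left out there were 2 to 5. Of all genes, between 523 of 20078 (without M10_2) and 1828 of 20248 (without M2_A) passed in those fits. Cldn8 lost that threshold without M10_2 and without M13_1. Cldn2 and Cldn14 held it in 12 of 12 such fits, though Cldn14 ran from 1.35, without M10_2, to 2.28.

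No gene was called in the main fit, so every sign that turned belongs to a log2 fold change that was not called. With limma-voom, Cldn1 was -0.0100, Cldn12 -0.035 and F11r -0.012. Without M10_2 and M13_1, Cldn1 was -0.28, Cldn12 -0.15, Ocln -0.041, Marveld2 -0.026 and F11r -0.018. With M17_1 left out too, Cldn1 was -0.085, Cldn5 -0.0012, Cldn12 -0.12, Ocln -0.016, Marveld3 -0.0087, F11r -0.026 and Apc -0.0019. With a GC offset and without M10_2 and M13_1, Cldn1 was -0.21, Cldn10 0.0017, Cldn12 -0.12, Marveld2 -0.031 and F11r -0.00026. Scaled by total count only, Cgn was 0.025. With 1 mouse left out the ranges that crossed 0 were Cldn1 -0.094 to 0.39, Cldn4 -0.035 to 0.58, Cldn7 -0.019 to 0.29, Cldn12 -0.0081 to 0.18, Ocln -0.0040 to 0.092, Marveld2 -0.0095 to 0.052, F11r -0.012 to 0.064, Cgn -0.10 to 0.067 and Apc -0.00069 to 0.13.

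The mean log2 ratio of barrier to pore claudin RPKM was 2.12 in APC Min/+ and 1.28 in WT mice with Cldn7 counted as a barrier claudin. With 1 mouse left out it was 1.08 to 1.30 in APC Min/+ and 0.11 to 0.55 in WT mice. Apart from what a setting leaves out, the cause of these shifts was not tested.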
